A study of Mus musculus with 16 samples.

Results

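Xpo7, Kmt5a, Hdac2, Trim58, Diaph3, Rac1, Rac2, Mxi1, Lmnb1 and H1f0 are 10 genes of enucleation and nuclear condensation in mouse erythroblasts, and were chosen by symbol from a count table of 55416 genes. All 10 passed the filter on low counts in every comparison. Foetal livers of 8 mouse embryos were taken at E13.5, S1 and S3 erythroblasts were sorted from each by Ter119 and CD71, and each embryo and stage has 1 polyA RNA-seq library. S1 cells are early progenitors close to the CFU-E, and S3 cells are basophilic erythroblasts, which still carry a nucleus. Wild-type (Nprl3+/+, WT) embryos 1 and 5 were female and 0 and 8 male, heterozygous (Nprl3+/-, Het) embryos 3 and 4 were male, and homozygous mutant (Nprl3-/-, KO) embryo 2 was female and embryo 9 male. The mutant allele is a constitutive deletion of the Nprl3 promoter region on a C57BL/6J background, carried in every tissue of the embryo and not restricted to erythroid cells, and it leaves in place the α-globin enhancers that lie within Nprl3. Nprl3 encodes a subunit of GATOR-1, an inhibitor of mTORC1, and the study asked what it does in erythroid cells. No group received a treatment.

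Mammalian erythroblasts condense and then expel their nucleus. Histones are deacetylated, part of the histone pool is exported to the cytoplasm, and chromatin is compacted by H4K20 methylation, linker histones and condensins. Openings form in the lamina, microtubule motors place the nucleus at one side of the cell, and an actin ring driven by Rac GTPases and a formin helps to pinch it off. Much of this machinery is made several divisions before the nucleus leaves. The libraries describe the mRNA of cells that have not reached that step, so enucleation itself was not measured.

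Between S1 and S3 in WT, Xpo7 rose 56.8-fold, Trim58 15.7-fold, Mxi1 7.45-fold, Diaph3 3.51-fold and Rac1 1.30-fold, and Hdac2 fell 1.6-fold. The levels of Kmt5a, Rac2, Lmnb1 and H1f0 did not pass the test, which did not pair the libraries of an embryo. In this test 5 of the 10 genes were called higher and 1 lower at S3, where 30.6% of all 13514 genes tested were called higher and 35.0% lower. With the embryo as a block in edgeR, Rac2 (adjusted p = 0.0447) and Lmnb1 (adjusted p = 0.00865) passed as well, in a fit that called 9410 genes. The shares of the 10 genes are set against a table in which most genes moved with maturation. Between genotypes, the main edgeR fit called 0 of the 10 genes at either stage, beside 1 of 14039 genes in KO at S1, 66 of 11804 in KO at S3 and 0 in Het. DESeq2 called Lmnb1 in KO at S3. Fits in edgeR with sex as a covariate (KO and Het) or without the filter on low counts (KO) called some of the 10 at S3, as given below.

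The library totals ran from 20666044 to 37609502 counts. Nprl3 itself was read at 22.6 to 32.6 CPM (counts scaled to library size with TMM) in WT S1 libraries, 12.7 and 13 in Het and 0.319 and 0.676 in KO, and in KO S1 it fell by 5.72 ± 0.43 (SE) on the log2 scale (adjusted p = 0.0212, edgeR). At S3 the KO libraries held 107 and 111 CPM against 146 to 204 in WT, where transcripts that start at the enhancers count towards the gene. Stage markers followed the labels, as all 5 early progenitor markers fell and all 11 late erythroid markers rose from S1 to S3 in WT. At S1, WT embryos 0 and 8 stood apart from the other 6. Their summed late erythroid markers were 9653 and 9491 CPM against 1638 to 3455 in the others, and their summed neutrophil markers were 205 and 117 CPM against 1158 to 1706. Neutrophil markers stayed at or below 13.1 CPM at S3, with Ly6g at 0 in every library.

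The 10 genes lie on 7 chromosomes in mm39. On chromosome 14 are Xpo7 (70891686 to 71004068, minus strand) and Diaph3 (86892803 to 87378671, minus), on chromosome 5 Kmt5a (124577993 to 124600371, plus) and Rac1 (143489389 to 143513791, minus), and on chromosome 15 Rac2 (78443367 to 78456983, minus) and H1f0 (78912650 to 78914704, plus). The remaining 4 are Hdac2 on chromosome 10 (36850540 to 36877885, plus), Trim58 on 11 (58531291 to 58543230, plus), Mxi1 on 19 (53298949 to 53364241, plus) and Lmnb1 on 18 (56840885 to 56886496, plus). Counting did not use strand, and Rac1 shares 2309 exonic bases with Daglb on the opposite strand, so reads there were left out for both genes. The bounds are those of the deposited annotation.

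The promoters of Trim58 and Diaph3, which rose at S3, and of Hdac2, which fell, are printed to show the sequence upstream of genes that moved in opposite directions. Each is the 250 bases upstream of the RefSeq start, 5′ to 3′ on the gene's strand, from the RefSeq promoter table (GRCm38.p6) matched to GRCm39. They lie at chr11:58531041-58531290 (plus), chr14:87378661-87378910 (minus) and chr10:36850290-36850539 (plus), and the Diaph3 window reaches 11 bases into the gene bounds given above. Capitals mark matches to the motifs searched on both strands.
Trim58: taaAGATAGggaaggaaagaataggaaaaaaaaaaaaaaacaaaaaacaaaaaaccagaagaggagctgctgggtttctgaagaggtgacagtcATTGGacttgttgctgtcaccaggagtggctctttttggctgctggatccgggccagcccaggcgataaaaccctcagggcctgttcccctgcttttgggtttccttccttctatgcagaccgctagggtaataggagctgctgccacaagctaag
Diaph3: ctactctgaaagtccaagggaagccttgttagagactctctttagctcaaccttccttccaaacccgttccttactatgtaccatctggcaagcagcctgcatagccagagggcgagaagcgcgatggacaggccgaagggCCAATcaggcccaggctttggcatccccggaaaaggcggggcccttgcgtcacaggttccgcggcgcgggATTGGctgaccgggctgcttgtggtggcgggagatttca
Hdac2: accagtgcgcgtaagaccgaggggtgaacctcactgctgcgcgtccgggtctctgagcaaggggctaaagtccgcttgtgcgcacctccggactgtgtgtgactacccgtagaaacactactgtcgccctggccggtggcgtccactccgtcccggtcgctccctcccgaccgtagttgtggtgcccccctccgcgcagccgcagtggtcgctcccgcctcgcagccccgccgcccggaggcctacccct
The Trim58 window holds AGATAG, which is one form of the site of erythroid GATA factors, at bases 4 to 9 and a reverse CCAAT box at bases 95 to 99. The Diaph3 window holds a CCAAT box at bases 142 to 146 and a reverse one at bases 212 to 216. The Hdac2 window, which is 68.8% G and C against 47.6% for Trim58 and 58.8% for Diaph3, holds none of the motifs. Windows were found for 6 of the 10 genes (10 windows in all, as Kmt5a and Mxi1 have 3 each). AGATAG or TGATAG occurred in windows of Kmt5a and Trim58 and in 13.3% of all 32851 windows, CCAAT in those of Diaph3, Kmt5a and Trim58 and in 33.8%, and CCNCACCC, the KLF type, in those of Kmt5a and Mxi1 and in 14.9%. No member window held AGATAA or TGATAA (16.6% of all windows), the E-box CACGTG (6.02%), or TTTGAA or TTCGAA (17.1%). These are matches of letters in short windows and show no binding.

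Xpo7, Hdac2 and Kmt5a act on histones. Xpo7 encodes an exportin that carries histones out of the maturing erythroblast nucleus. In WT S1 libraries Xpo7 was at 32.7, 10.3, 17.7 and 92.1 CPM in embryos 0, 1, 5 and 8, and in WT S3 libraries at 2360, 1291, 1506 and 3127 CPM. The lowest S3 library lay above the highest S1 library, and embryos 0 and 8 were the highest at both stages. The log2 change was 5.83 ± 0.73 (SE, 4 embryos, adjusted p = 5.77e-05, edgeR). Without embryos 0 and 8 it was 6.70 ± 0.32, a fold of 104, and without embryo 8 alone the fold was 90.4. Het went from 17.2 and 14.4 to 1567 and 1164 CPM (6.55 ± 0.95, adjusted p = 3.63e-05). KO went from 13.8 and 19.4 to 1018 and 1529 CPM (6.36 ± 0.94, adjusted p = 5.28e-05). Within each of the 8 embryos Xpo7 was 34.0 to 125 times higher at S3.

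Hdac2, a class I histone deacetylase, was called lower at S3 in all 3 genotypes. WT S1 libraries held 327, 322, 349 and 288 CPM and WT S3 libraries 172, 235, 207 and 159 CPM in embryos 0, 1, 5 and 8. The stages did not overlap, and the change was −0.68 ± 0.14 on the log2 scale (adjusted p = 0.00164). Het fell from 354 and 407 to 204 and 190 CPM (−0.83 ± 0.18, adjusted p = 0.00111) and KO from 358 and 308 to 214 and 161 CPM (−0.73 ± 0.18, adjusted p = 0.00308). Hdac2 was lower at S3 in all 8 embryos, by 1.37 to 2.14 times. Without Het embryo 4 the Het change was −0.69 and no longer passed (adjusted p = 0.0614).

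Kmt5a, the enzyme that adds a single methyl group to H4K20, was high at both stages. It stood at 192, 187, 209 and 296 CPM in WT S1 and at 245, 215, 230 and 308 CPM in WT S3. The stages overlapped because S1 cells of embryo 8 were above 3 of the 4 S3 libraries. The log2 difference was 0.24 ± 0.20 (adjusted p = 0.301), and without embryo 8 it was 0.33 ± 0.12 and passed (adjusted p = 0.0449). In Het it was 0.28 (adjusted p = 0.369, or 0.0309 when the 4 Het libraries were fitted alone) and in KO 0.16 (adjusted p = 0.633), with KO embryo 2 the single embryo in which S3 was lower.

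**Figure D1:**
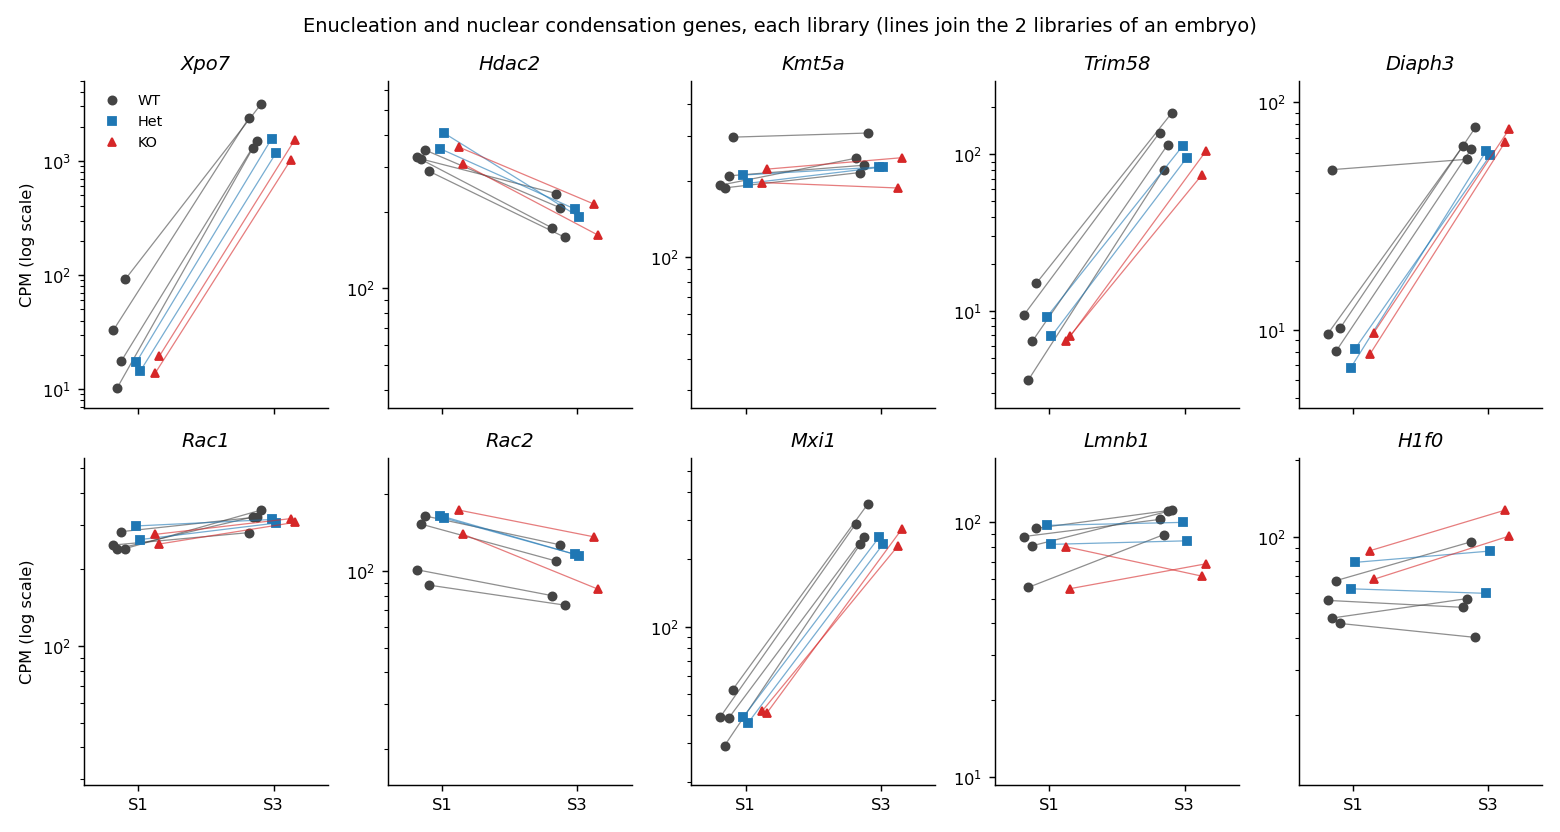
CPM of each of the 10 genes on log axes of their own, with each point a library at S1 or S3 (WT circles, Het squares, KO triangles) and each line joining the libraries of an embryo. Xpo7, Trim58 and Mxi1 rise along every line, Hdac2 and Rac2 fall along every line, and the WT line that starts at 50.6 CPM in the Diaph3 panel is embryo 1.

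Trim58, Diaph3, Rac1 and Rac2 act on the cytoskeleton. Trim58 is an erythroid ubiquitin ligase that brings about the loss of dynein, the motor that holds the nucleus. It was at 9.46, 3.61, 6.39 and 15 CPM in WT S1 libraries of embryos 0, 1, 5 and 8, and at 138, 80.0, 115 and 184 CPM at S3. All S3 libraries were above all S1 libraries, with embryos 0 and 8 again highest at both stages, and the log2 change was 3.97 ± 0.45 (adjusted p = 2.95e-05). Het rose from 9.20 and 6.86 to 113 and 94.9 CPM (3.81 ± 0.57, adjusted p = 4.93e-05) and KO from 6.45 and 6.89 to 73.5 and 104 CPM (3.84 ± 0.57, adjusted p = 5.61e-05). The ratio within an embryo ran from 11.4 to 22.2.

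Diaph3 encodes mDia2, the formin of the contractile ring. Its WT S3 levels were 64.5, 56.2, 62.4 and 77.5 CPM. At S1 embryos 0, 5 and 8 held 9.58, 8.02 and 10.1 CPM, and embryo 1 held 50.6 CPM. That library lay just below the lowest S3 library and far above the other 7 S1 libraries, which ran from 6.80 to 10.1 CPM. The WT change of 1.81 ± 0.55 (adjusted p = 0.0143) was 2.95 ± 0.19 (7.74-fold) without embryo 1. It was no longer called without embryo 0 (1.59, adjusted p = 0.0625), without embryo 8 (1.54, adjusted p = 0.0531) or without both (1.08, adjusted p = 0.224). Het rose from 6.80 and 8.21 to 61.1 and 58.5 CPM (3.12 ± 0.68, adjusted p = 0.00113), and KO from 7.78 and 9.69 to 66.9 and 76.3 CPM (3.14 ± 0.68, adjusted p = 0.0012). Apart from WT embryo 1, with a ratio of 1.11, the ratio of S3 to S1 within an embryo was 6.73 to 8.98.

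Rac1 and Rac2 are the GTPases whose loss impairs the actin ring. Rac1, which is made in most cells, was at 249, 241, 282 and 242 CPM in WT S1 and at 279, 321, 321 and 342 CPM in WT S3, in embryos 0, 1, 5 and 8. The stages overlapped by the S3 library of embryo 0, and the change of 0.38 ± 0.13 passed the test (adjusted p = 0.0214). It lost the call without embryo 0, 1 or 5, where the change was 0.43, 0.36 and 0.44 (adjusted p = 0.066, 0.0723 and 0.071). The call was also lost without embryos 0 and 8 together (0.36, adjusted p = 0.0514) and under upper-quartile scaling (0.21, adjusted p = 0.176). Rac1 rose within all 8 embryos by 1.06 to 1.42 times, and the changes in Het (0.27, adjusted p = 0.127) and KO (0.35, adjusted p = 0.0559) did not pass, though DESeq2 called it in KO (adjusted p = 0.033) and the fit of the 4 Het libraries alone in Het (adjusted p = 0.0438). Rac2, the haematopoietic form, was at 101, 153, 165 and 88.0 CPM in WT S1 and at 80.0, 109, 127 and 73.5 CPM in WT S3. It was lower at S3 in each of the 8 embryos, by 1.20 to 1.65 times, yet embryos 0 and 8 were low at both stages and the groups overlapped. The WT difference of −0.32 ± 0.23 did not pass (adjusted p = 0.251), nor did those in Het (−0.38, adjusted p = 0.282) and KO (−0.40, adjusted p = 0.262). With the embryo as a block, which compares stages within an animal, Rac2 passed in WT (−0.30, adjusted p = 0.0447), Het (−0.38, adjusted p = 0.0236) and KO (−0.43, adjusted p = 0.014). Neutrophils also express Rac2, and all 10 of their markers tested fell from S1 to S3 in WT, by a median of 7.80 on the log2 scale. The lowest S1 sums were in embryos 0 and 8. At S3, where Rac2 was again lowest in embryos 0 and 8, the sums were 4.94, 3.50, 1.26 and 2.76 CPM in WT embryos 0, 1, 5 and 8. The study's erythroid flow panel for foetal liver includes antibodies to CD11b and Gr1, which mark myeloid cells, but the methods name only Ter119 and CD71 for this sort. Their part in the Rac2 values was not tested, and in bulk samples fewer cells of a type and less RNA per cell cannot be told apart.

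Mxi1, Lmnb1 and H1f0 belong to transcription and chromatin structure. Mxi1 is a partner of MAX that opposes MYC. It went from 39.4, 29.2, 38.8 and 52.1 CPM in WT S1 to 290, 233, 253 and 356 CPM in WT S3, without overlap. The change of 2.90 ± 0.23 (adjusted p = 2.62e-06) had the smallest adjusted p of the 10 genes. Het rose from 39.4 and 36.7 to 251 and 234 CPM (2.79 ± 0.29, adjusted p = 1.51e-06), and KO from 41.9 and 40.7 to 230 and 274 CPM (2.72 ± 0.28, adjusted p = 2.36e-06). The ratio within an embryo ran from 5.49 to 8.00, a narrower range than for Xpo7.

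Lmnb1, a B-type lamin, was at 87.8, 55.4, 80.7 and 94.6 CPM in WT S1 and at 102, 89.3, 110 and 111 CPM in WT S3. The S3 library of embryo 1 lay below the S1 library of embryo 8, so the stages overlapped. The difference of 0.44 ± 0.18 did not pass (adjusted p = 0.057), and it passed without embryo 1 (0.37, adjusted p = 0.048), without embryo 8 (0.52, adjusted p = 0.0433), without embryos 0 and 8 (0.61, adjusted p = 0.0484) and with the embryo as a block (0.46, adjusted p = 0.00865). Het libraries held 97.1 and 81.8 CPM at S1 and 99.7 and 84.4 at S3, and KO libraries 80.0 and 54.8 at S1 and 61.4 and 68.5 at S3. Neither genotype showed a change that passed (0.16 in Het and 0.05 in KO on the log2 scale).

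H1f0, the replacement linker histone of cells that leave the cycle, was at 56.3, 47.9, 67.2 and 45.7 CPM in WT S1 and at 52.8, 57.2, 95.6 and 40.3 CPM in WT S3. The ranges overlapped, and the difference of 0.24 ± 0.24 did not pass (adjusted p = 0.412). Embryo 5 was the highest WT embryo at both stages. In KO, H1f0 went from 88.1 and 68.1 to 127 and 101 CPM, and in Het from 62.5 and 79.3 to 60.0 and 87.9 CPM. The KO difference of 0.65 ± 0.32 did not pass (adjusted p = 0.101) but did with the embryo as a block (0.65, adjusted p = 0.00791), which compares stages within an animal. The 2 KO embryos rose by 1.44 and 1.48 times.

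Over the 10 genes, S3 libraries lay above all S1 libraries in WT for 4 genes (Xpo7, Trim58, Diaph3 and Mxi1, beside 27.6% of all genes tested) and below for 1 (Hdac2, beside 32.8%). In KO, 4 of the 10 genes were called higher and 1 lower, where 26.9% and 30.0% of 13402 genes were, and 6 lay without overlap above (34.0% of genes) and 2 below (44.1%). In Het, 4 were called higher and 1 lower, where 28.9% and 32.4% of genes were, and 6 lay without overlap above (38.9%) and 2 below (48.2%). With groups of 2 embryos many genes separate in this way. The genes called in KO and in Het were Xpo7, Trim58, Diaph3, Mxi1 and Hdac2 in each case. With the embryo as a block the count of called genes was 8 in WT, 8 in KO and 6 in Het, in fits that called 9410 of 13514 genes in WT, and 8211 and 8826 of 13402 in KO and Het.

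**Figure D2:**
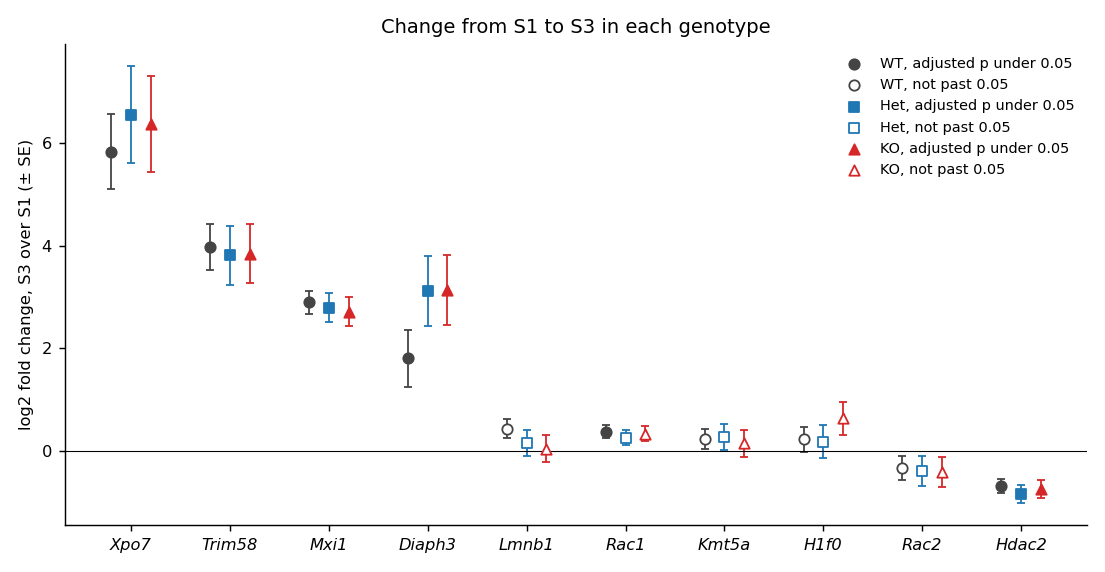
Log2 fold change of S3 over S1 (vertical axis, points with SE bars) for the 10 genes in WT, Het and KO, with filled symbols for an adjusted p under 0.05. Xpo7 lies near 6, Trim58 near 4 and Mxi1 near 3 in every genotype, WT Diaph3 lies below the other genotypes at 1.81, and Hdac2 lies below 0 in all.

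Per length, the order of the 10 genes was rearranged between the stages. The length is the sum of all merged exons of a gene, which can be longer than the transcripts made, so places within a stage depend on it. In WT S1, Hdac2 had the highest level at 71.9 ± 5.64 CPM per kb (SD, n = 4), followed by Rac1 at 56.4, Kmt5a at 41.7, Rac2 at 40.8, Lmnb1 at 26.9 and H1f0 at 26.4. Mxi1 (5.84), Trim58 (3.93), Diaph3 (3.51) and Xpo7 (2.01 ± 1.95) came last. Diaph3 lay at 1.44 to 1.82 CPM per kb in 3 embryos and at 9.08 in embryo 1, so that its place above Xpo7 by the mean rests on that library. Xpo7 itself was highest in embryo 8, at 4.85. By the WT median Diaph3 was also above Xpo7 (1.77 and 1.33), and in Het S1 and KO S1 it was above without overlap. Neighbours in that order did not overlap between Hdac2 and Rac1 and between H1f0 and Mxi1, and overlapped elsewhere. The length of Rac1 includes the 2309 bases shared with Daglb, where reads were left out. The values of Rac1 per length are therefore too low, and its place below Hdac2 is not settled. In WT S3, Xpo7 came first at 109 ± 44.3 CPM per kb, then Rac1 (70.3), Trim58 (58.9), Kmt5a (47.0), Hdac2 (43.2), Mxi1 (41.5), Lmnb1 (34.9), Rac2 (31.4) and H1f0 (29.9), all overlapping with the next. As the Rac1 value is too low here as well, the place of Xpo7 above Rac1 is not settled. Diaph3 was last at 11.7 and lay below H1f0 without overlap.

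The paralogues of the 10 genes showed which family members held the level at S3. Of 21 paralogues, 19 passed the filter, and 11 rose and 4 fell in WT. Xpo1, the general exportin, was near level at 19.1 and 21.7 CPM per kb (log2 difference 0.25, adjusted p = 0.33), and Xpo4 fell from 8.05 to 5.10 (−0.59, adjusted p = 0.0103). Per length, Xpo7 went from below both at S1 to above both at S3, without overlap of libraries. Hdac1 rose from 70.2 to 100 CPM per kb (0.58, adjusted p = 0.00154) while Hdac3 fell from 20.7 to 10.6 (−0.91, adjusted p = 0.000332). Hdac1 and Hdac2 were alike at S1, at 70.2 and 71.9 CPM per kb. Of the enzymes that add further methyl groups to H4K20, Kmt5c rose from 24 to 55.9 CPM per kb (1.28, adjusted p = 0.000146) and Kmt5b from 0.832 to 1.30 (0.71, adjusted p = 0.0122).

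Among formins, Diaph1 stood at 3.04 CPM per kb at S1, where embryo 1 was at 44.7 CPM and the other S1 libraries at 9.68 to 15.3, and at 1.6 at S3 (−0.85, adjusted p = 0.125), and Diaph2 fell from 0.187 to 0.0226 (−2.94, adjusted p = 0.00248). At 11.7 CPM per kb, Diaph3 had the highest level of the mDia formins at S3. Cdc42, a related GTPase, was at 190 and 224 CPM per kb (0.30, adjusted p = 0.0941), and Rac3 was too low to be tested. The MYC antagonists Mxd1 and Mxd3 rose 48.7-fold (1.79 to 83.1 CPM per kb, adjusted p = 1.72e-05) and 44.7-fold (1.6 to 68.3, adjusted p = 5.63e-07), more than Mxi1, and Mxd4 did not pass (−1.10, adjusted p = 0.0805). Lmna, the A-type lamin gene, rose 5.81-fold from 25.6 to 143 CPM per kb (adjusted p = 1.23e-06), and Lmnb2 fell from 7.76 to 1.33 (−2.49, adjusted p = 2.4e-05).

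All 5 replication-type linker histones rose in WT, and H1f0 did not pass. H1f2 rose 28.8-fold from 5.26 to 144 CPM per kb (adjusted p = 3.01e-07), H1f4 from 5.67 to 35.5 (2.71, adjusted p = 7.25e-06), H1f5 from 23.5 to 74.0 (1.72, adjusted p = 0.00222), H1f3 by 2.93 (adjusted p = 2.63e-05) and H1f1 by 1.29 (adjusted p = 0.0167) on the log2 scale. At S1 H1f0 was above H1f2 per length, and at S3 H1f2 was above H1f0. Messages of replication-type histones mostly lack a polyA tail, so polyA libraries hold an unknown part of them. H1f10 was too low to be tested.

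**Figure D3:**
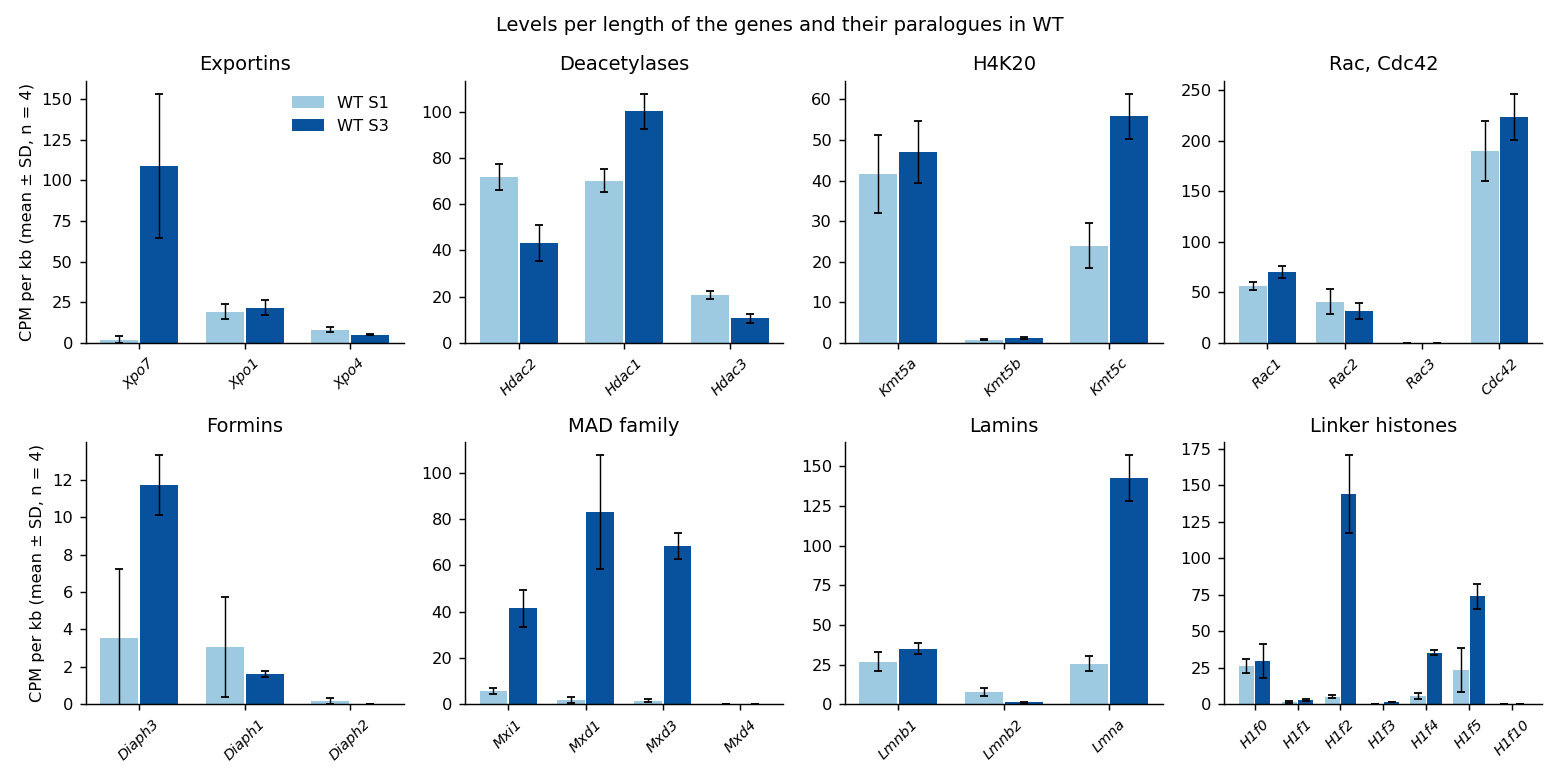
Levels per length (CPM per kb, bars are means of 4 WT embryos with SD) at S1 and S3 for the 10 genes except Trim58 beside their paralogues, in 8 panels with axes of their own that start at 0. Xpo7, Mxi1 with Mxd1 and Mxd3, Lmna and H1f2 have S3 bars well above their S1 bars, and Hdac2 falls as Hdac1 rises.

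Other genes of the same processes were taken by list. The 10 genes had a median log2 change of 0.41 in WT, beside −0.08 over all 13514 genes tested, of which 4142 rose and 4728 fell. All 8 condensin subunits, which compact chromosomes, rose (median 1.83), among them Smc4 by 2.28 ± 0.14, Ncaph by 1.98 ± 0.16 and Smc2 by 1.82 ± 0.17. Of 17 dynein, dynactin and LINC genes tested, 11 rose and 1 fell (median 0.84), with Nde1 up 4.27-fold, and Pafah1b1 and Ndel1 each up 2.84-fold. These are regulators of the motor that Trim58 acts on. Of 12 other genes tied to enucleation, 8 rose and 3 fell (median 1.86), with Foxo3 (3.87 ± 0.22) and Riok3 (3.10 ± 0.19) up.

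Actomyosin and contractile ring genes rose in 8 of 16 cases and fell in 1 (median 0.49), with Plek2 up 13.6-fold, citron kinase (Cit) 5.47-fold and Tpm1 3.37-fold. Of the 6 exportins other than Xpo7, 0 rose and 4 fell (median −0.84), including Xpo5 (−1.69 ± 0.25), Xpo6 (−1.59 ± 0.33) and Xpot (−1.08 ± 0.23), which carry pre-miRNA, actin and tRNA. Histone deacetylases and acetyltransferases were split, with 6 up and 6 down of 13 (median 0.58), from Hdac11 at 3.23 ± 0.36 to Kat2a at −4.01 ± 0.32 and Hdac7 at −6.78 ± 0.60.

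Among the remaining lists, 3 of 4 tested H4K20 genes rose (median 1.00), with the demethylase Phf8 up 2.7-fold, and the reader L3mbtl3 fell (−4.06 ± 0.80). The MYC and MAX network had 2 up and 4 down of 10 (median −0.73), and Myc fell 12.3-fold and Mlxip 6-fold. Of 10 lamina and inner membrane genes, 3 rose and 2 fell (median 0.08), with the lamin B receptor gene Lbr up 5.53-fold. All 14 cell cycle markers also rose (median 2.06), among them Aurka by 2.46, Ccnb2 by 2.40 and Aurkb by 2.09, and their summed level went from 3939 to 5023 CPM over the S1 libraries to 13261 to 18032 over the S3 libraries. Condensins, Cit and the replication-type histones are made in dividing cells, and the part of the cycle in their rise was not tested.

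**Figure D4:**
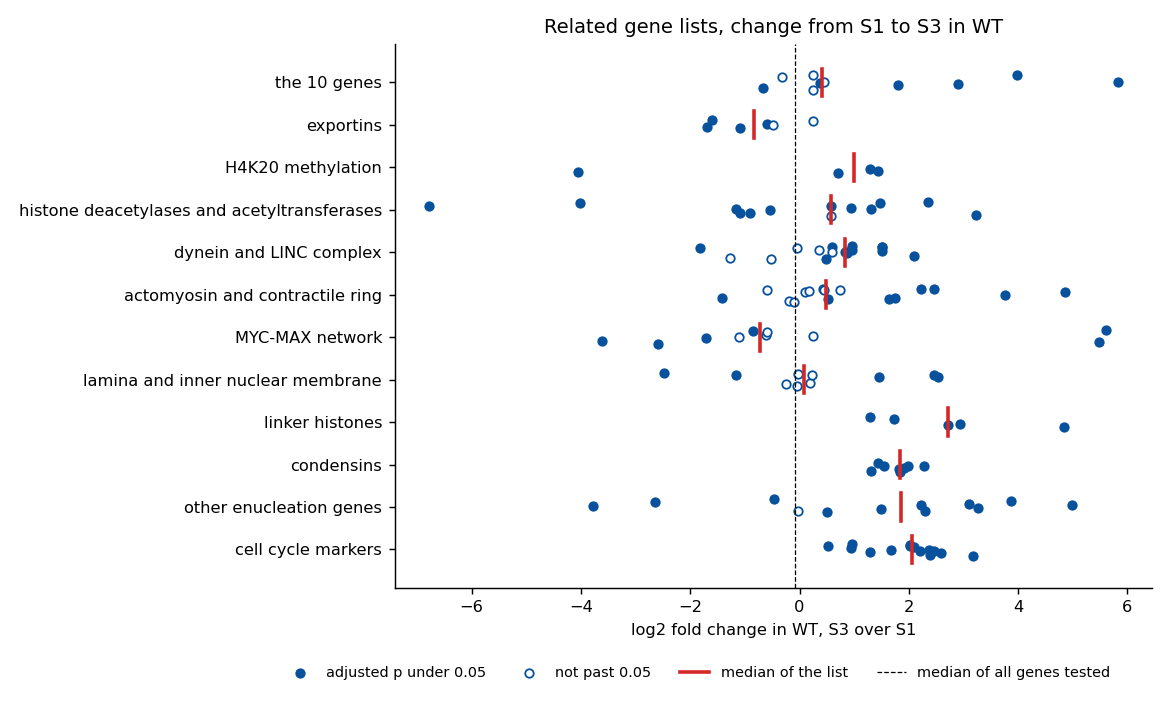
Log2 fold change of S3 over S1 in WT (horizontal axis) for each tested gene of the related lists, filled where the adjusted p was under 0.05, with the median of each list in red and that of all genes dashed. Every condensin, linker histone and cell cycle point lies right of 0, and most exportin points lie left of it.

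Genotypes were compared within each stage against the same WT libraries for Het and KO. At S3, KO Lmnb1 was at 61.4 and 68.5 CPM where WT ran from 89.3 to 111 CPM, so both KO libraries lay below all 4 WT libraries. The log2 difference was −0.61 ± 0.16 with an unadjusted p of 0.00441 from edgeR and an adjusted p of 0.209. KO H1f0 was at 127 and 101 CPM where WT ran from 40.3 to 95.6 CPM, and both KO libraries lay above all WT libraries. The difference was 0.95 ± 0.29, a 1.94-fold higher level, with an unadjusted p of 0.00948 from edgeR and an adjusted p of 0.295. H1f0 and Lmnb1 were the only genes of the 10 without overlap, beside 18.7% of 11804 genes. Neither passed the correction, and 0 of the 10 genes were called where 0.559% of all genes were, with 2 at an unadjusted p under 0.05. DESeq2 called 1 of the 10, Lmnb1 (adjusted p = 0.0239), and gave H1f0 an adjusted p of 0.0737, in a fit that called 259 genes in all.

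These 2 differences depended on the fit. With sex as a covariate in edgeR, Lmnb1 (−0.61, adjusted p = 0.0123) and H1f0 (0.98, adjusted p = 0.0102) passed, and without the filter on low counts H1f0 did (0.94, adjusted p = 0.0036). These fits called 547 and 356 genes in all, against 66 in the fit with the filter and without sex. Without WT embryos 0 and 8 they were −0.53 (adjusted p = 0.504) and 0.66 (adjusted p = 0.603). Xpo7 was at 1018 and 1529 CPM in KO S3 against 1291 to 3127 in WT (−0.66 ± 0.38, adjusted p = 0.723), and Trim58 at 73.5 and 104 against 80.0 to 184 CPM (−0.49 ± 0.33, adjusted p = 0.798). Both differences were −0.04 without WT embryos 0 and 8, which held the highest levels. With sex as a covariate in DESeq2, which called 730 genes, Xpo7 passed (−0.60, adjusted p = 0.000563). The other 6 genes differed by at most 0.24 on the log2 scale. That of Rac2 (0.24) ran from −0.13 without KO embryo 2 to 0.54 without KO embryo 9.

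Markers of other cells also differed at S3. All 13 tested macrophage markers were lower in KO (median −1.36), of which Marco (−2.58 ± 0.35, adjusted p = 0.0242) and Lyz2 (−1.68 ± 0.28, adjusted p = 0.0458) passed. Their summed level was 30.5 to 40.7 CPM in KO, 58.3 to 120 in WT and 56.7 to 81.8 in Het, and Cd163 was at 0 in the KO and in the Het libraries. All 14 hepatoblast markers were lower in KO too (median −1.47, 0 called). Their summed level was 74.2 and 203 CPM in KO, which overlapped WT (172 to 797), and 124 and 163 in Het, below all WT libraries. The highest WT sums were those of embryos 0 and 8 (797 and 482 CPM). Megakaryocyte sums overlapped, at 61.2 and 122 CPM in KO and 58.2 to 103 in WT. Late erythroid markers summed to 163458 and 163599 CPM in KO S3 and 184061 to 215920 in WT. Cell cycle markers summed to 13261 and 14780 CPM in KO S3, 15724 to 18032 in WT and 16195 to 17511 in Het. The part of these in the values of Lmnb1 and H1f0 was not tested.

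At S1, H1f0 was again higher in KO, at 88.1 and 68.1 CPM against 45.7 to 67.2 in WT, without overlap (0.53 ± 0.21, unadjusted p = 0.0352 in edgeR, adjusted p = 1). Macrophage markers summed to 71.5 and 72.6 CPM in KO S1, 34.1 to 58.8 in WT and 37.3 and 54.7 in Het. Neutrophil markers summed to 1628 and 1706 CPM in KO and 117 to 1382 in WT, where embryos 0 and 8 were lowest. Het libraries, at 1568 and 1575 CPM, also lay above all WT libraries. The part of these markers in the H1f0 values was not tested. H1f0 was the 1 gene of the 10 without overlap, beside 9.92% of 14039 genes, and 0 of the 10 were called in edgeR or DESeq2, beside 0.00712% of all genes (Nprl3 alone). Xpo7 (−1.22 ± 0.84) and Diaph3 (−1.13 ± 0.78) had the widest errors, as WT embryo 8 was high for Xpo7 and embryo 1 for Diaph3. Without embryos 0 and 8 the Xpo7 difference was 0.27, and without embryo 1 that of Diaph3 was −0.09. For Trim58 it was −0.38, and 0.43 without embryos 0 and 8.

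Het libraries gave 0 called genes of the 10 at either stage in edgeR and in DESeq2, with 0 at an unadjusted p under 0.05. At S1 Hdac2 was at 354 and 407 CPM in Het against 288 to 349 in WT, without overlap (0.24 on the log2 scale, adjusted p = 0.905), the 1 gene of 10 to do so beside 18% of 13818 genes. At S3 0 of the 10 genes lay apart, beside 14.8% of 11746 genes, and Xpo7 differed by −0.56 ± 0.35 (adjusted p = 0.901), which was 0.05 without WT embryos 0 and 8. Over all genes 0% were called at S1 and 0% at S3, with 589 and 373 genes at an unadjusted p under 0.05 and 30 and 1 called by DESeq2. Het embryos were both male, and with sex as a covariate in edgeR, Xpo7 (−0.99, adjusted p = 0.0061), Trim58 (−0.61, adjusted p = 0.045) and Rac2 (0.62, adjusted p = 0.0045) passed at S3, in a fit that called 2124 of the 11746 genes. The WT males are embryos 0 and 8, whose S1 libraries stood apart, and sex and this difference between WT embryos cannot be told apart.

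**Figure D5:**
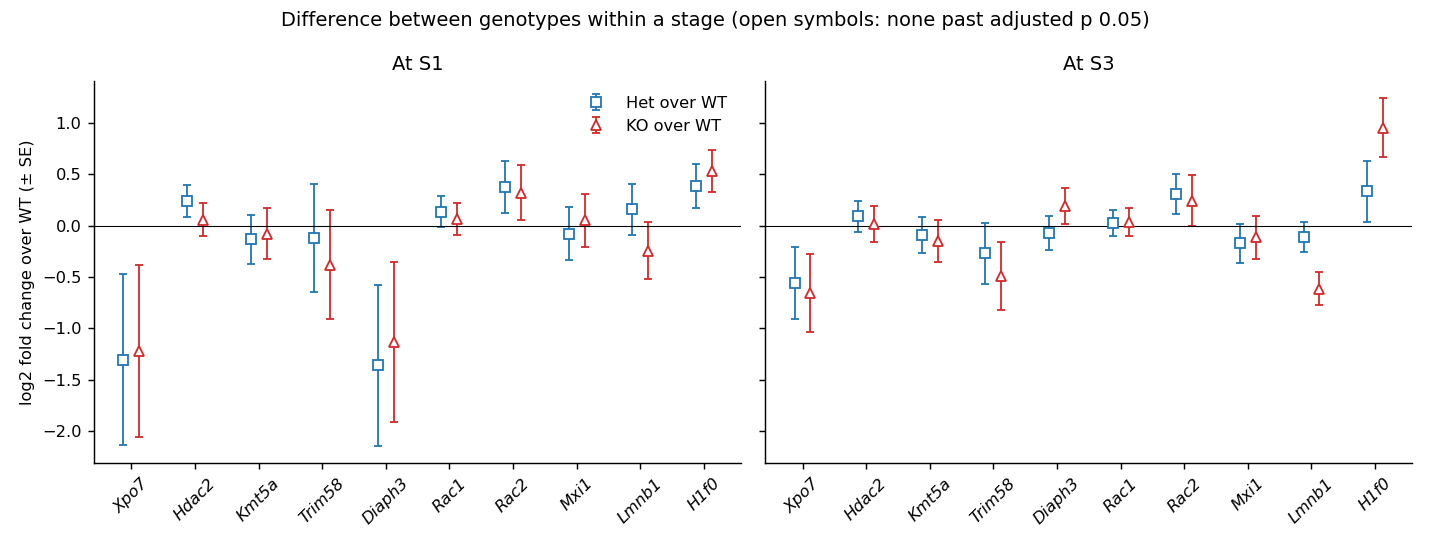
Log2 fold change over WT (vertical axis, points with SE bars) for the 10 genes in Het (squares) and KO (triangles), at S1 on the left and S3 on the right, with open symbols as none passed an adjusted p of 0.05 in edgeR. The SE bars of Lmnb1 and H1f0 in KO at S3 lie clear of 0, and the bars of Xpo7 and Diaph3 at S1 are the widest.

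The change from S1 to S3 was compared between genotypes by an interaction term. For KO 0 of the 10 genes passed (0 at an unadjusted p under 0.05, 0 in DESeq2), beside 0.00742% of 13485 genes, which is Nprl3 itself (5.17 ± 0.41, adjusted p = 0.000305). For Het 0 of the 10 and 0% of 13364 genes passed, with 374 genes at an unadjusted p under 0.05, none of them among the 10, and 0 called by DESeq2. The estimates farthest from 0 were those of Diaph3, 1.31 ± 0.83 in KO and 1.31 ± 0.87 in Het, which share WT embryo 1. Without embryo 1 they were 0.15 ± 0.27 and 0.14 ± 0.24. For Xpo7 they were 0.58 ± 0.99 and 0.71 ± 0.94, and both changed sign without WT embryos 0 and 8 (−0.34 ± 0.43 and −0.14 ± 0.32), the KO one also without embryo 8 alone (−0.11).

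Genes with the most similar pattern were found by the Pearson correlation of log2 CPM over the 16 libraries, given here as a description. The libraries fall into 2 stages, so a gene that moves strongly with stage correlates with many others. For Xpo7 they were Rnf123, Cep76 and Hace1 (r = 0.999 each), for Trim58 Kif18b, Otud5 and Klhl12 (0.998, 0.998 and 0.997) and for Mxi1 Cat, Rab10 and Dcaf12 (0.999, 0.998 and 0.998). Xpo7, Trim58 and Mxi1 correlated with each other at 0.99 in every pair. Hdac2 went with Rad1 and Phb2 (0.990 each), and Diaph3 with Hook3, Bclaf3 and Mier1 (0.986, 0.982 and 0.982, but 0.453, 0.297 and 0.729 within the 8 S3 libraries).

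The genes that moved little with stage had their own neighbours. Rac2 went with Ntan1, Nipsnap3b and Fam162a (0.948, 0.944 and 0.940), Rac1 with Ppp2ca and Mtch1 (0.931 and 0.922), and Kmt5a with Zfp592, Osbp and Pik3ca (0.905, 0.895 and 0.893). H1f0 went with Trim21, Irgm1 and Trim34a (0.910, 0.893 and 0.855). These correlations were 0.939, 0.943 and 0.917 within the 8 S3 libraries and 0.812, 0.833 and 0.742 within the 8 S1 libraries. The libraries of a stage mix all 3 genotypes, and H1f0 was higher in both KO libraries than in all WT libraries at each stage. Irgm1, Trim21 and Trim34a are interferon-stimulated genes, and the paper's pathway analysis points to a raised type-I interferon response in KO. The part of genotype in these correlations was not tested. Lmnb1 had the lowest values, with Ivd, Fbxw5 and Dnajc11 at 0.864, 0.839 and 0.827.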

How the data were processed

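The labels and the paper give RNA-seq of S1 and S3 erythroblasts sorted from E13.5 foetal livers of 8 embryos, and groups and replicate numbers were taken from the sample titles. Other label fields name an embryonic stem cell line, which was not followed. RNA of small numbers of sorted cells was amplified before polyA libraries were made. The authors mapped reads to mm39 with STAR 2.7.9, assigned read pairs to Ensembl genes with featureCounts 1.6.4, and deposited raw counts with a gene length column, per the file headers without strand and without reads that mapped to several places or genes. Symbols came from GENCODE release 39 (54749 of 55416 genes). Left unused were 4 library columns that no sample label matches.

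Counts were scaled with TMM and tested with edgeR 4.0.16 (quasi-likelihood, package defaults) in R 4.3.3 on genes with a mean normalized count above 10. Adjusted p-values are Benjamini-Hochberg values over all genes tested, with a threshold of 0.05. The stage comparison in WT used the 8 WT libraries, those in Het and KO used all 16 libraries with 1 mean per group, and genotypes were compared within a stage. SE is the log2 fold change divided by the root of F. CPM are TMM-scaled over 16 libraries, and CPM per kb divides them by the deposited length, which is the sum of merged exons. The embryos are the replicates. The 10 genes and the lists were chosen with earlier results of these data known. Named genes are the 10, their paralogues, the 3 genes of each list with the smallest p in WT, list genes called between genotypes, and the 3 protein-coding genes nearest to each of the 10 by correlation. A few genes and 1 list that this rule would name are not reported here. Genes and markers described for WT embryo 1 and for single marker sums were chosen after their values were seen.

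Same-numbered libraries come from the same embryo. The correlations of their deviations from the group means ran from 0.0405 to 0.380 over 13402 genes, and blocking on the embryo was 1 alternative fit. Other alternatives were DESeq2 1.42.0, upper-quartile scaling, scaling without globins, no filter, the newer quasi-likelihood method, sex as a covariate, all 16 libraries or the 4 libraries of a genotype in the fit, and each embryo left out. The fit without WT embryos 0 and 8 was chosen after seeing the data. Scripts were tested on simulated data. Promoter windows were not found here for Xpo7, Rac1, Rac2 and Lmnb1.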

Additional observations from a re-analysis of the deposited data

Results flagged for a closer look

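Diaph3 in WT embryo 1 at S1 stood at 50.6 CPM, with the other 3 WT S1 libraries between 8.02 and 10.1 CPM. The gap to the next library was 0.950 of the range, above Dixon's 95% critical value for 4 samples. It was the 1 such library in 36 groups of WT libraries tested, and chance gives about 1 in 20 groups. The same library was the highest S1 library for Diaph1, at 44.7 CPM against 9.68 to 15.3, and for Diaph2, at 4.82 CPM against 0.863 to 2.03. It held 1250 CPM of the mitochondrial ribosomal RNA mt-Rnr2, against 141 to 295 in the other S1 libraries and 479 to 773 at S3. Of 7492 genes above 8 CPM in it, 98 were at least 2-fold above every other S1 library, against 0 to 35 in each of the others. These genes were looked up after the values were seen, and their part in the Diaph3 value was not tested.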

How the results depend on the processing

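Of 1179 fold changes of the 10 genes recomputed under an alternative, 1136 stayed on their side of the threshold, 10 lost a call, 33 gained one, and 0 called changes reversed. The number of the 10 genes called between S1 and S3 in WT was 6, and 4 to 7 with 1 embryo left out, where 7383 to 8864 of all genes were called against 8870. In KO it was 5, and 8 with the embryo as a block, where 8211 of all genes were called against 7631. In Het it was 5, and 8 when the 4 Het libraries were fitted alone, where 9936 of all genes were called against 8216. For KO against WT at S3 it was 0 (66 of all genes), 1 in DESeq2 (259), 1 without the filter (356), 2 with sex in edgeR (547) and 3 with sex in DESeq2 (730). For Het against WT, sex in DESeq2 gave 2 at S1 (815 of all genes) and 5 at S3 (2148 of all genes), and sex in edgeR gave 3 at S3 (2124 of all genes). Leaving out an embryo gave 0 in each genotype comparison and interaction. The cause was not tested. The block changed no other call than those named for Rac1 in KO (0.35, adjusted p = 0.0427), Rac2, Lmnb1 and H1f0.

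Over all genes, KO against WT at S3 called 66 genes, 5 without WT embryos 0 and 8 and 730 with sex in DESeq2. Upper-quartile scaling moved the median log2 change of all genes in WT from −0.08 to −0.24, and leaving out the filter moved it to −0.30. Rac1, whose change was small, lost its call under both (adjusted p = 0.176 and 0.118). DESeq2 gave Diaph3 no adjusted p in the WT stage comparison. With 2 embryos in Het and KO, their spread is poorly known.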
